A study of Mus musculus with 6 samples.

Results

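Tendon lineage markers are genes that tendon cells and their precursors express, from the transcription factors that start the lineage to proteins of the mature tendon matrix. The 8 members examined here were Scx, Mkx, Egr3, Tnmd, Comp, Cilp, Cilp2 and Clec3b. The list was drawn up with earlier results of these data known, its rows were picked by gene symbol with no filter on expression, and all 8 were found among the 16759 genes of the deposited RNA sequencing table. Hind leg muscle of male C57BL/6J mice, which entered the study at 8 weeks of age, was compared between a control (Con) group of 3 mice and a moderate-intensity exercise (EX) group of 3 mice, with 1 library per mouse. The EX mice ran on a treadmill for 60 min a day, 5 days a week, over 6 weeks, covered 22 km each and were killed 24 h after their last session. The Con mice had no treadmill training, and the time at which they were killed is not given in the sources used here. The sources do not say which hind leg muscle the small piece of tissue came from, or whether it held tendon. In such bulk tissue, fewer cells of a type and less RNA per cell cannot be told apart.

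Tendon development starts with Scx, a basic helix-loop-helix transcription factor that marks tendon precursors, and with Mkx, a homeobox factor needed for the growth of collagen fibrils. Both act on the genes of the tendon matrix, and Tnmd, a membrane glycoprotein that marks maturing tendon cells, lies downstream of them. Comp, Cilp and Cilp2 are secreted matrix proteins that cartilage makes as well as tendon. Egr3 belongs to the Egr zinc finger factors, and in muscle it is best known for its role in muscle spindles. Clec3b encodes tetranectin, a secreted lectin that fibroblasts of many tissues express, so neither Egr3 nor Clec3b is particular to tendon. For none of the other members do these data show that tendon cells alone expressed it.

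Library totals ranged from 13845362 to 16240431 counts, and within a group the counts of any 2 libraries differed by more than sampling noise (chi-square per degree of freedom from 1.71 to 3.79). Ckm, the muscle creatine kinase, was at 26370 CPM in Con and 26910 CPM in EX, as befits the labelled tissue. CPM are counts scaled to the size of each library, with TMM normalization. A gene was called higher or lower where its p-value, adjusted by the Benjamini-Hochberg method in edgeR's quasi-likelihood test, lay below 0.05. Of 16716 genes tested, 2013 or 12.0% were called, and 50.5% of these were higher in EX. That last share was 38.9% when libraries were scaled by totals without the 20 most abundant genes, and between 20.9% and 32.5% with limma on FPKM or TPM values. Where no read was counted, as many as 3 remain possible by counting error alone, equal to 0.188 to 0.214 CPM depending on the library.

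Of the 8 markers, Tnmd, Cilp2 and Clec3b were upregulated in EX muscle, Cilp was downregulated, and Scx, Mkx, Egr3 and Comp did not pass the test. The 3 upregulated members were 37.5% of the list, where 6.08% of all genes tested were higher, and the downregulated member was 12.5% of it, where 5.96% were lower. The ranges of the 2 groups did not overlap for 4 of the 8 members, the same 4, against 26.7% of all genes tested. The median log2 fold change of the 8 markers was 0.24, beside -0.004 over all genes tested, but it was 0.07 over the 7 with a mean of at least 20 counts, which leave out Mkx. With 3 mice against 3, an exact permutation test of a single gene cannot go below p = 0.1, and these 4 genes reached that value.

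**Figure D1:**
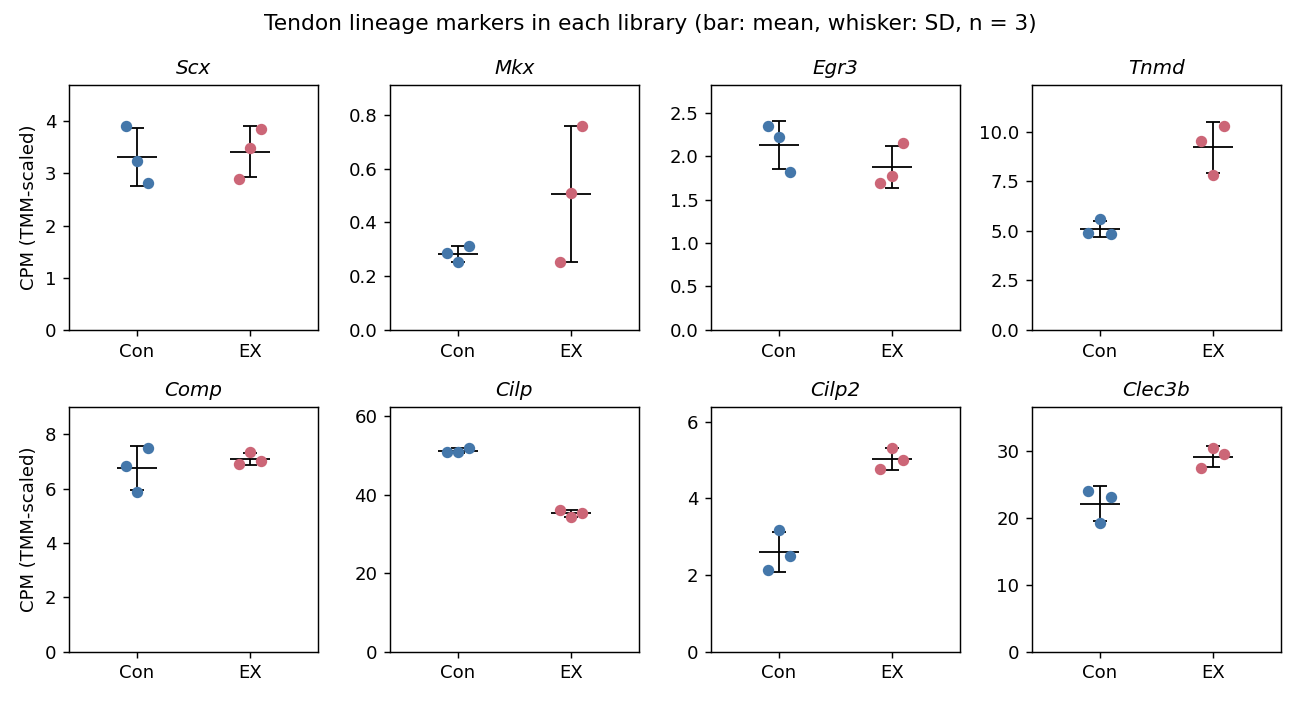
CPM (TMM-scaled, linear axis from 0) of the 8 markers in the 3 Con and 3 EX libraries; each point is a library, and the bar and whisker are the mean and SD (n = 3). The groups stand apart for Tnmd, Cilp, Cilp2 and Clec3b, with Cilp alone lower in EX, and overlap for Scx, Mkx, Egr3 and Comp.

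None of the 3 transcription factors passed the test. Scx (gene 20289) had 55, 51 and 45 counts in Con replicates 1 to 3 and 46, 55 and 61 counts in EX replicates 1 to 3. Its level was 3.32 ± 0.554 CPM (SD, n = 3) in Con and 3.41 ± 0.489 CPM in EX, and the groups overlapped. The log2 fold change was 0.05 (SE 0.17, adjusted p = 0.902), and its 95% interval spanned from 0.814-fold to 1.31-fold. The sign was not stable, at -0.06 without Con replicate 3, -0.05 without EX replicate 3 and -0.05 with limma on log2(TPM + 0.1). Scx lies within the span of Bop1, a ribosome assembly gene, on the opposite strand and without a shared exon. Whether reads were counted by strand is not given, so reads from an unspliced Bop1 transcript could not be told apart from Scx. Bop1 itself was at 30.0 ± 1.12 in Con and 32.0 ± 2.09 CPM in EX, with a log2 fold change of 0.09 (adjusted p = 0.434).

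Mkx (gene 210719) was close to the limit of detection. It had 4, 4 and 5 counts in the Con libraries and 4, 8 and 12 counts in the EX libraries, so that EX replicate 1 was no higher than the Con libraries while EX replicate 3 was the highest. The log2 fold change of 0.81 (SE 0.52) was close to that of Tnmd in size, but its 95% interval reached from 0.846-fold to 3.66-fold and its adjusted p was 0.373. Without EX replicate 3 the log2 fold change was 0.41. No change of Mkx was detectable at this depth, and its exons overlap those of another annotated transcript on the same strand, not analysed here, so that its few counts are uncertain.

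Egr3 (gene 13655) had counts of 33, 35 and 29 among the Con libraries and of 27, 28 and 34 among the EX libraries, with the highest EX library inside the Con range. Its level was 2.13 ± 0.278 CPM in Con and 1.87 ± 0.243 CPM in EX (log2 fold change -0.18, SE 0.21, adjusted p = 0.656). Its relative Egr1, an immediate early factor that also drives tendon collagen genes, was at 31.9 ± 5.16 CPM in Con and 22.4 ± 0.179 CPM in EX. Egr1 was thus lower in EX (log2 fold change -0.50, SE 0.08, adjusted p = 2.59e-06), without overlap, and Egr2 had only 12 to 18 counts in each library and a log2 fold change of -0.15 (adjusted p = 0.822). Among 9 tested immediate early genes, Nr4a3 and Atf3 were higher, Egr1 and Junb were lower, and 5 did not pass, so that 22.2% of the list was called in each direction beside 6.08% of all genes higher and 5.96% lower. Atf3 was past the threshold in 10 of 16 alternative fits. Among 11 genes that act with Egr3 in muscle spindles or their nerve supply, Erbb3, Heg1 and Ntf3 were lower in EX and 0 were higher, with overlapping values for Ntf3. The genes lower were 27.3% of that list, beside 5.96% of all genes. The number lower depended on the test, and it was 0 with limma on log2(FPKM + 0.1), 1 without EX replicate 2 and 2 with DESeq2.

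Tnmd (gene 64103), which encodes tenomodulin, was upregulated. Its CPM were 4.91, 5.58 and 4.82 in the Con libraries and 9.55, 7.80 and 10.3 in the EX libraries. Every EX library was thus above every Con library, and EX replicate 2 was the lowest of the EX group. The mean rose from 5.10 ± 0.413 to 9.22 ± 1.29 CPM (log2 fold change 0.85, SE 0.13, adjusted p = 1.40e-06), or 1.80-fold with a 95% interval from 1.51 to 2.15. It stayed past the threshold in all 16 alternative fits, with log2 fold changes from 0.69 to 0.96. Its close relative Cnmd, which encodes chondromodulin of cartilage, had at most 2 counts in any library.

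The matrix members split in direction. Comp (gene 12845), a pentameric glycoprotein that binds collagen, had counts of 96, 93 and 120 among the Con mice and of 110, 116 and 111 among the EX mice. The EX values lay inside the Con range, at 7.10 ± 0.233 CPM against 6.75 ± 0.814 CPM. The log2 fold change was 0.07 (SE 0.12, adjusted p = 0.768), with a 95% interval from 0.888-fold to 1.25-fold, and it was -0.01 with limma on log2(TPM + 0.1).

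Cilp (gene 214425), a matrix protein that binds TGF-beta and IGF1, was the only member downregulated. Its CPM were 50.9, 50.8 and 52.0 in the Con libraries and 36.1, 34.3 and 35.4 in the EX libraries, so the libraries of each group lay close together and far from the other group. The mean fell from 51.3 ± 0.681 to 35.2 ± 0.878 CPM (log2 fold change -0.54, SE 0.06, adjusted p = 1.69e-10), or 0.688-fold with a 95% interval from 0.637 to 0.742. Over 16 alternative fits the log2 fold change ranged from -0.63 to -0.52, and all of them were past the threshold.

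Cilp2 (gene 68709), the related gene, moved the other way. Its counts were 30, 50 and 40 in Con and 76, 84 and 79 in EX, with Con replicate 1 the lowest. The mean rose from 2.60 ± 0.524 to 5.03 ± 0.279 CPM (log2 fold change 0.94, SE 0.16, adjusted p = 3.09e-05), or 1.92-fold with a 95% interval from 1.53 to 2.41. With limma on log2(FPKM + 1), a scale that understates the change of low genes, it was 0.44, and it was past the threshold in all 16 alternative fits. Yjefn3, which ends 100 bases before Cilp2 on the same strand and was looked up after the values were seen, had 29 to 46 counts in each library and a log2 fold change of 0.10 (adjusted p = 0.81). Within libraries, the mean log2 ratio of Cilp2 to Cilp counts was -4.32 in Con and -2.81 in EX, a difference of 1.51.

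Clec3b (gene 21922) was the most abundant member per transcript length. Its CPM were 24.1, 19.3 and 23.2 in Con and 27.5, 30.6 and 29.5 in EX, with Con replicate 2 lowest and no overlap between groups. The mean rose from 22.2 ± 2.58 to 29.2 ± 1.59 CPM (log2 fold change 0.40, SE 0.07, adjusted p = 6.72e-05), or 1.32-fold with a 95% interval from 1.19 to 1.46. The call was lost in fits that changed both the unit and the test, as limma on log2(FPKM + 0.1) gave 0.34 with an adjusted p of 0.0633, and limma on log2(TPM + 0.1) gave 0.30 with an adjusted p of 0.0662. Relative to the fibroblast receptor Pdgfra, the mean log2 count ratio of Clec3b was 0.10 in Con and 0.64 in EX.

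**Figure D2:**
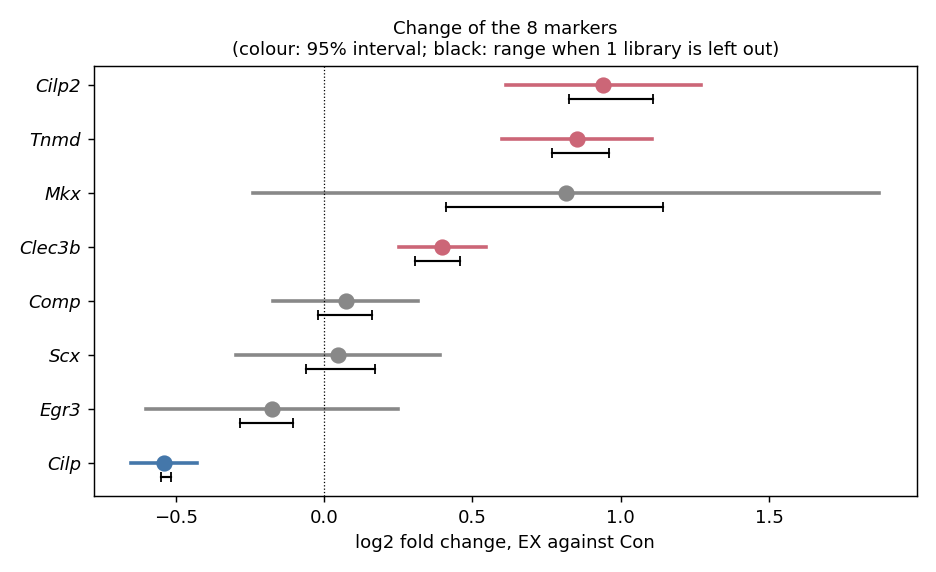
Log2 fold change (EX against Con) of each marker; the point and coloured line are the edgeR estimate and its 95% interval (red: higher, blue: lower, grey: not past the threshold), and the black line is the range when 1 of 6 libraries is left out. Leaving out a library kept Tnmd between 0.77 and 0.96, Cilp2 between 0.83 and 1.11, Clec3b between 0.30 and 0.46 and Cilp between -0.55 and -0.52, while Scx and Comp crossed 0.

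Upstream sequence was available for 3 of the 8 members in a RefSeq table of promoters (GRCm38.p6), all of them genes that changed, and it is shown for the X-linked Tnmd and for Cilp because they moved in opposite directions. The lines give the 250 bases before each RefSeq start site, 5′ to 3′ on the strand of the gene, for Tnmd (chrX:133850758-133851007, plus strand) and Cilp (chr9:65264930-65265179, plus strand). Capitals mark E-boxes, the CANNTG motif that basic helix-loop-helix factors such as Scx can bind, searched on both strands.
Tnmd: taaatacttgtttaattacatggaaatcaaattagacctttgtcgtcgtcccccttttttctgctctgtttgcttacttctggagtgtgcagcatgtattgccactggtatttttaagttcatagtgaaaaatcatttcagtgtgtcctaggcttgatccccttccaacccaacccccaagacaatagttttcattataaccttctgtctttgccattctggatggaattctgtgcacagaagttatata
Cilp: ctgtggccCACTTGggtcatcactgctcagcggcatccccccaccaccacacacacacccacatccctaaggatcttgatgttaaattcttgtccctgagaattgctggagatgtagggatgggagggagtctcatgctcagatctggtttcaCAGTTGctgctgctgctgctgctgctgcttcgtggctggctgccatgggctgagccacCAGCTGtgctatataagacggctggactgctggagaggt
The Cilp window held 3 E-boxes, starting 242, 97 and 39 bases before the start site, and the Tnmd window held none. The corresponding Cilp2 window held 1 E-box and 1 match to the Egr motif GCGNGGGCG, 63 bases before its RefSeq start. That window lies within a longer first exon in the GENCODE annotation and is not shown. At least 1 E-box was present in 66.2% of the 32851 windows of this length in the table and an Egr match in 4.70% of them. The Smad box CAGAC, the TATA box TATAAA and the E-box form CAGATG were searched as well. Of these, the Cilp2 window held 2 Smad boxes, and the 3 windows held no other match. A Smad box was present in 42.2% of all windows. GC content was 38.4% in the Tnmd window and 56% in the Cilp window, with a median of 52.4% over all windows. A match is a match of letters and is no evidence of binding.

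Levels between genes were compared per transcript length, in FPKM as the authors deposited it. In Con the order was Clec3b (33.9 ± 3.97 FPKM), Cilp (13.6 ± 0.262), Tnmd (5.20 ± 0.407), Scx (4.17 ± 0.653), Comp (3.28 ± 0.410), Cilp2 (0.72 ± 0.141), Egr3 (0.60 ± 0.0721) and Mkx (0.10 ± 0.010). Among neighbours in that order, Scx overlapped with Comp and Cilp2 overlapped with Egr3, and the other neighbours did not overlap. In EX, Tnmd at 9.02 ± 1.30 FPKM reached Cilp at 9.00 ± 0.307 and they overlapped, whereas in Con the level of Cilp was 2.62 times that of Tnmd. Cilp2 at 1.34 ± 0.0603 FPKM no longer overlapped with Egr3 at 0.513 ± 0.0757 in EX. The order over all libraries was the same in TPM.

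**Figure D3:**
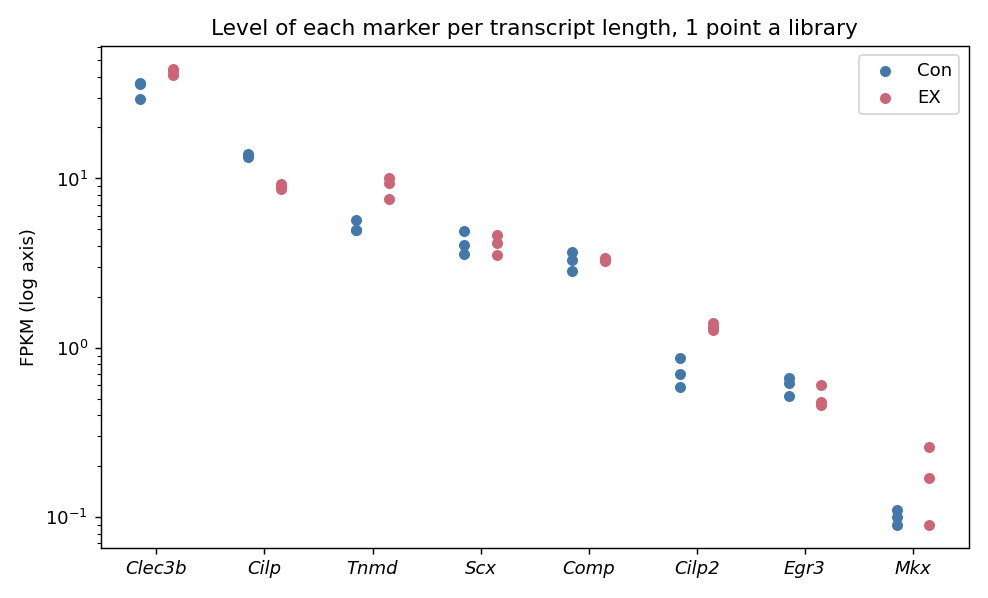
FPKM of each marker on a log axis, with 1 point per library (blue: Con, red: EX) and genes ordered by their mean in Con. Clec3b was highest in every library and Mkx lowest, and Tnmd met Cilp in EX at about 9 FPKM.

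Within libraries, Tnmd was higher in EX relative to Scx and to Cilp. The FPKM ratio of Tnmd to Scx was 1.02, 1.40 and 1.39 in the Con libraries and 2.67, 1.82 and 2.17 in the EX libraries, and the ratio of Tnmd to Cilp was between 0.357 and 0.42 in Con and between 0.873 and 1.11 in EX. The ratio of Tnmd to Scx was free of overlap between groups (exact permutation test, two-sided, p = 0.1). By contrast, the ratio of Tnmd to Col1a1, the main collagen chain of tendon, was between 0.308 and 0.369 in Con and between 0.277 and 0.365 in EX. The mean log2 ratio of their counts differed by -0.02 between groups, which overlapped (exact permutation test, two-sided, p = 0.9). All ratios given here were chosen after the values were seen.

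Many structural genes of the tendon matrix were higher in EX, as Tnmd was. Of 24 listed genes, 13 were higher in EX and 0 were lower, which was 54.2% of the list beside 6.08% of all genes. Their median log2 fold change was 0.39, and the number higher ranged from 10 to 14 over the alternative fits. The median went down to 0.19 with limma on log2(FPKM + 1). The number lower was 1 when libraries were scaled by totals without the 20 most abundant genes. Tnc, a matrix protein of loaded tendon (log2 fold change 1.04, adjusted p = 6.94e-09), rose from 4.78 ± 0.386 to 9.83 ± 0.850 CPM. Col1a1 rose from 86.4 ± 2.42 to 157.1 ± 0.818 CPM (log2 fold change 0.86), and Fmod, a regulator of collagen fibril width, rose by 0.79 and Col3a1 by 0.76. The 11 genes that did not pass included Dcn, Bgn, Lum and Kera, proteoglycans of collagen fibrils, with log2 fold changes of -0.10, 0.11, 0.05 and 0.07. Dcn and Lum are also among the fibroblast markers below, and Col11a1 and Chad among the cartilage markers. The tendon matrix list is thus not particular to tendon. Col1a1, Col3a1 and Fmod were not among the fibroblast markers, and which cells expressed them was not tested. Genes of the tendon sheath did not pass in 4 of 4 cases.

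Regulators that act upstream of the lineage were examined next. Of 23 genes for TGF-beta signalling, FGF response and partner transcription factors, 0 were higher and 3 were lower (Egr1, Spry1 and Fgfr1), so that 13.0% were lower beside 5.96% of all genes, and 13.0% were called in either direction beside 12.0% of all genes. The median log2 fold change was -0.05. Fgfr1 fell by 0.15 and Spry1, an FGF antagonist, by 0.20 on the log2 scale, and they were past the threshold in 11 and 6 of 16 alternative fits. The number lower was 1 in each fit without Con replicate 2, Con replicate 3 or any 1 of the EX libraries. The ligands Tgfb1, Tgfb2 and Tgfb3 had log2 fold changes of 0.03, -0.16 and -0.05, and none passed the test.

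Family members of the markers did not share their direction in every case. Comp belongs to the thrombospondins, and Thbs4, a thrombospondin of tendon and of its junction with muscle, rose from 107.5 ± 2.56 to 143.4 ± 2.11 CPM (log2 fold change 0.42, adjusted p = 2.11e-10). Thbs2 also rose, by 0.47 (adjusted p = 6.22e-04, past the threshold in 13 of 16 alternative fits), while Thbs1 and Thbs3 had log2 fold changes of 0.24 and 0.30 with adjusted p-values of 0.0596 and 0.188. The count ratio of Thbs4 to Comp within libraries was higher in EX by 0.34 on the log2 scale, without overlap (exact permutation test, two-sided, p = 0.1). This ratio, too, was chosen after the values were seen, and that p-value is the lowest the test can give. Clec3a, the cartilage relative of Clec3b, fell from counts of 26, 44 and 51 to counts of 3, 0 and 2 (adjusted p = 1.33e-11), the opposite direction of Clec3b. Tcf15, a relative of Scx, and Irx3, a relative of Mkx, did not pass (adjusted p = 0.377 and 0.303), and Irx5 had at most 2 counts.

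Markers of other cell types that express some of the same genes were set beside these results, and their counts can be read against the 6.08% of all genes that were higher and the 5.96% that were lower. Interstitial fibroblasts, which express Clec3b, showed 0 of 12 markers higher and 0 lower, with a median log2 fold change of -0.04 and a summed level of 1434 to 1508 CPM in Con and 1437 to 1447 CPM in EX. Without Con replicate 1, 1 of them was higher, and without Con replicate 3, 1 was lower. The number lower was also 1 when libraries were scaled by totals without the 20 most abundant genes. Pdgfra was at 20.7 ± 0.755 CPM in Con and 18.7 ± 0.589 in EX (adjusted p = 0.239). Cartilage markers, relevant to Comp, Cilp and Cilp2, were 2 higher and 2 lower of 17 tested, or 11.8% each way. Sox6, which muscle fibres also express, made up 86.4% of their summed level in Con, and the other 16 summed to 23.6 to 29.7 CPM in Con and 28.2 to 30.2 CPM in EX. Within that list Col2a1, the main cartilage collagen, fell from counts of 31, 24 and 26 to counts of 6, 5 and 4 (adjusted p = 5.55e-07), Acan had 4, 1 and 5 against 0, 0 and 1, and Col11a2 rose by 0.73 and Col9a1 by 0.70. Col11a2 was past the threshold in all 16 alternative fits but Col9a1 in only 6 of 15. Bone markers were lower for 3 of 8 tested (37.5%), with counts of Ibsp at 26, 32 and 30 for Con against 0, 1 and 2 for EX, Spp1 lower by 1.77 on the log2 scale, and summed levels of 30.2 to 33.1 against 20.7 to 24.5 CPM. Alpl made up 69.2% of that sum in Con, and the other 7 summed to 9.32 to 10.7 CPM in Con and 3.27 to 4.31 CPM in EX. The remaining bone gene called, Col10a1, had counts of 5, 2 and 7 against 0, 1 and 0 and kept its call in 5 of 13 alternative fits. Col2a1, Ibsp and Clec3a were thus lower in EX together with Cilp, while Col11a2, Col9a1 and the member Cilp2 were higher and Comp did not pass. The part of cartilage and bone cells in the change of Cilp was not tested.

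Macrophage and fat cell markers were higher in EX, as Tnmd, Cilp2 and Clec3b were, although fat between the muscles had been dissected away. Of 8 macrophage markers 6 were higher (75.0%), with a summed level of 40.5 to 44.5 CPM in Con and 74.5 to 81.7 CPM in EX. All 8 adipocyte markers were higher, with Adipoq up by 1.19 on the log2 scale. Plin4 made up 95.8% of their summed level in Con, and the other 7 summed to 16.4 to 18.7 CPM in Con and 40.2 to 44.8 CPM in EX. Of 8 endothelial markers 4 were lower (50.0%) and 1 higher, with sums of 680.0 to 697.7 CPM in Con and 599.2 to 621.9 CPM in EX. Without 1 library the number lower went down to 2 (Con replicate 2, EX replicate 1 or EX replicate 2) or 1 (EX replicate 3), and the number higher was 0 with DESeq2, with limma and without Con replicate 2 or any 1 of the EX libraries. Of 8 Schwann cell markers 6 were lower (75.0%), with sums of 113.8 to 126.1 CPM in Con and 87.3 to 90.2 CPM in EX, and the number lower was 3 without Con replicate 1 or without EX replicate 3. None of the defining markers Pdgfra, Adipoq, Adgre1 and Pecam1 was at 0 in any library. The part of these cell types in the changes of the tendon markers was not tested.

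**Figure D4:**
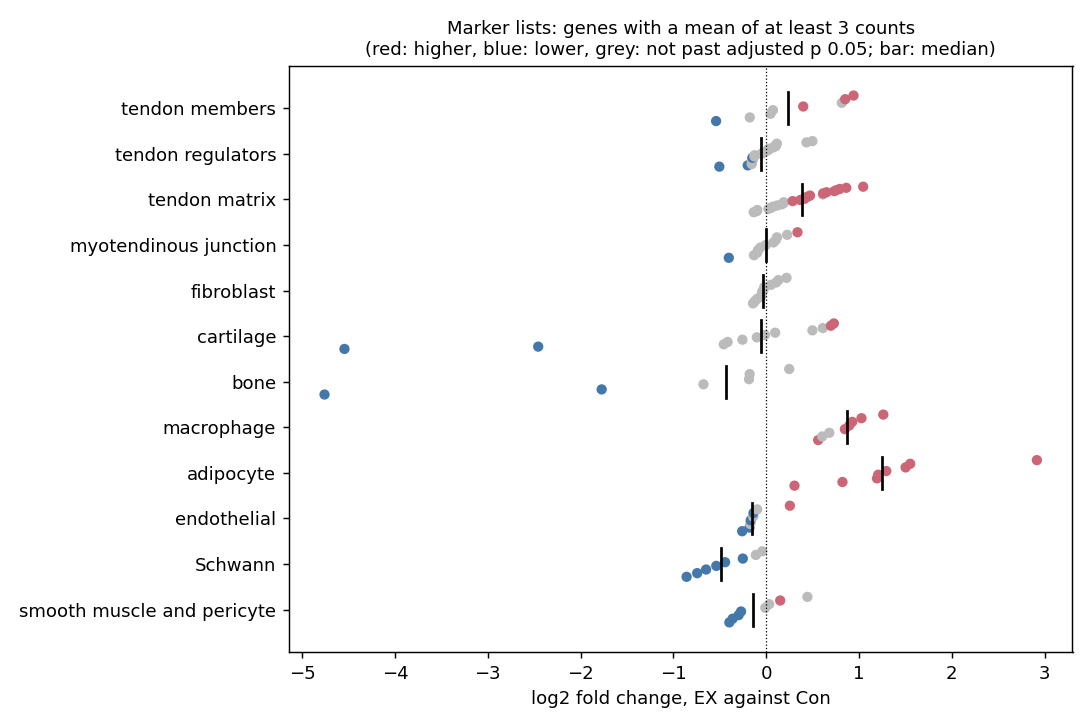
Log2 fold change (EX against Con) of single genes in the marker lists, for genes with a mean of at least 3 counts; each point is a gene, coloured by its call (red: higher, blue: lower, grey: not past the threshold), and the bar is the median of the genes plotted. Tendon matrix genes (median 0.39) lay mostly to the right, regulators (-0.05) and fibroblast markers (-0.04) around 0, and the points far to the left are Ibsp and Clec3a, with fitted values that depend on the prior count.

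For each member with a mean of at least 1 CPM, the gene with the most similar profile was sought by the root mean square difference of log2 CPM, centred on each gene's own mean, over the 6 libraries. Among 12044 genes of that level, G0s2, an inhibitor of fat breakdown, was nearest to Tnmd, at a difference of 0.09 log2 units where Tnmd itself spanned 1.08, and Fosl2 and Rgs7bp followed. Cilp was closest to Ppara, a regulator of fatty acid oxidation, at 0.03 log2 units, and then to Car3 and Mss51. For Cilp2, Dnajb1, C1qb and Nmrk2 were nearest, at 0.12 to 0.14, and for Clec3b they were Pnck, Alas2 and Lrrc38, at 0.04 to 0.05. The genes nearest to Scx were Bcl3, Tbc1d25 and Adck5, those nearest to Comp were Morc3, Tmem170b and Elp6, and those nearest to Egr3 were N6amt1, E4f1 and Cyp20a1, at 0.04 to 0.06. With 6 libraries in 2 groups, many genes are close to any profile, and the list is a description only.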

How the data were processed

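RNA of hind leg muscle was sequenced on the DNBseq platform (PE150), with 1 library per mouse. Per the methods of the study, reads were filtered and matched to GRCm39 with HISAT, while the submitters' processing notes name cutadapt, MultiQC, featureCounts and GRCm38.p6. For each gene and library, the table deposited by the authors holds estimated counts beside FPKM and TPM. The counts are not normalized, and FPKM and TPM are the authors' values per transcript length. Columns of group means were not used. Of the values, between 4.18% and 4.44% per library were not whole, but those of the 8 markers were.

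Estimated counts were rounded and compared with edgeR 4.0.16 in R 4.3.3 (TMM, glmQLFit, glmQLFTest, group as the only term), over the 16716 genes with a count in at least 1 library. Standard errors were derived from the F statistic. The common biological coefficient of variation was 0.0329. The alternatives were 2 filters, 2 other scalings, DESeq2 1.42.0, limma 3.58.1 on FPKM or TPM (pseudocounts 0.1 and 1), a robust prior, a replicate block and each library left out. Markers and lists were chosen with earlier results of these data known. Named genes were the 8 markers, up to 4 genes per list by size of change among called genes without overlap, relatives, overlapping genes, defining markers, and genes of similar profile. Other list members are named with their values in view. The labels give no batch. Promoter sequences are from RefSeq.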

Additional observations from a re-analysis of the deposited data

How the results depend on the processing

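Tnmd, Cilp and Cilp2 kept their direction and their call in all 16 alternative fits. Clec3b kept its direction in all 16 and its call in 13, and limma put it at 0.34 on log2(FPKM + 0.1), 0.33 on log2(FPKM + 1) and 0.30 on log2(TPM + 0.1), with adjusted p-values of 0.0633, 0.0687 and 0.0662. Scx changed sign without passing the test, to -0.016, -0.013 and -0.051 in the same 3 fits, and ranged from -0.06 to 0.17 when 1 library was left out. Comp was -0.014 with limma on TPM and ranged from -0.019 to 0.16 with 1 library left out. Mkx was not tested under the filters, and DESeq2 gave it no adjusted p. Egr3 was not tested with the filter of 1 FPKM.

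The number of genes past the threshold was 1174 with DESeq2 (628 higher, 546 lower), 1119 with limma on log2(FPKM + 0.1), of which 355 were higher, and 1110 on log2(FPKM + 1), of which 361 were higher, and 315 genes were higher on log2(TPM + 0.1). With 1 library left out it ranged from 1125 (without EX replicate 1) to 1757, with 613 to 912 higher and 497 to 845 lower, and it was 1290 without EX replicate 2 and 1148 without EX replicate 3. The cause was not tested. Of the other genes, the sign of Ckm was reversed at -0.027, -0.027 and -0.063 in the 3 limma fits and ranged from -0.019 to 0.11 with 1 library left out. That of Bop1 was -0.003 with limma on TPM, and Egr2 ranged from -0.33 to 0.038 with 1 library left out. Of 768 counts and medians of lists, 144 moved.

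With the replicate number as a block, 1856 genes passed and no call of a marker changed. The numbers do not pair the mice: deviations of same-numbered libraries had correlations from -0.0428 to -0.00538, and 0 of the 6 libraries correlated best with its own number. Depth limits Mkx most.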

Other observations

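Genes at the junction between muscle fibre and tendon were 1 higher and 1 lower of 11, or 9.09% each way beside 6.08% and 5.96% of all genes, with summed levels of 2604 to 2753 CPM in Con and 2247 to 2297 CPM in EX. Without Nrap, the other 10 summed to 1005 to 1017 CPM in Con and 1017 to 1032 CPM in EX. Over the alternative fits, the number of junction genes higher ranged from 0 with DESeq2 to 2 with the filter of 1 FPKM. The number lower went up to 3 with limma on log2(TPM + 0.1). Col22a1, the collagen that marks this junction, was at 17.1 ± 1.58 CPM (SD, n = 3) in Con and 20.0 ± 1.09 CPM in EX. Its log2 fold change of 0.23 missed the threshold (adjusted p = 0.0529, edgeR's quasi-likelihood test), although its values did not overlap between groups, and it was past the threshold in 5 of 16 alternative fits. Nrap, an actin-anchoring protein of the junction and of growing myofibrils, fell from 1647 ± 82.7 to 1245 ± 25.5 CPM (log2 fold change -0.40, adjusted p = 1.41e-12). Col24a1 was higher (log2 fold change 0.34, adjusted p = 0.0256), and 9 of 16 alternative fits kept this call. Integrins and talins of the junction (Itga7, Itgb1, Tln1 and Tln2) did not pass.

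Of 8 skeletal muscle fibre markers, 2 were higher and 2 were lower in EX, or 25.0% each way beside the same 6.08% and 5.96% of all genes, with a median log2 fold change of 0.04. The number lower was 0 without EX replicate 1 or EX replicate 3 and 1 without Con replicate 2, Con replicate 3 or EX replicate 2, and the number higher was 0 with limma on log2(FPKM + 0.1). Of 8 markers of smooth muscle and pericytes, 4 were lower and 1 was higher in EX, or 50.0% and 12.5% beside 5.96% and 6.08% of all genes. The number higher was 0 with DESeq2 and without any 1 library other than Con replicate 1. It was also 0 when libraries were scaled by totals without the 20 most abundant genes. Des, which skeletal muscle fibres also express, made up 73.7% of their summed level in Con, and the other 7 summed to 903.6 to 929.2 CPM in Con and 737.2 to 762.1 CPM in EX. Pdgfrb fell by 0.40 and Rgs5 by 0.36 on the log2 scale, and both calls held in all 16 alternative fits.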
